A study of Mus musculus with 6 samples.

Results

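Rcvrn, Guca1a, Guca1b, Rgs9, Prph2, Rom1, Rp1, Mak, Aipl1 and Impdh1 are 10 photoreceptor genes that serve recovery of the light response or the build and upkeep of the outer segment. They were taken by gene symbol, with every probe set of any suffix, which gave 15 of the 22626 probe sets that were not array controls. The rule used no measured value. Retinal RNA was measured in 3 Nhlh2 knockout mice and 3 wildtype mice at postnatal day 4 (P4), each on 1 Affymetrix mouse GeneChip array, on which a probe set of several short probes gives 1 signal per transcript. The labels give one group as knockout for Nhlh2, which encodes a basic helix-loop-helix transcription factor. Both groups were of a mixed C57/129 background, and RNA came from dissected retina of untreated mice. A knockout and a wildtype mouse of the same replicate number were littermates by the series design, so there were 3 pairs. Litter 1 and litter 3 below stand for pairs 1 and 3. That different numbers were different litters is taken from the numbering and is not stated. How the knockout allele was made is not given in the sources used here, and neither is the sex of the mice.

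After a flash of light, a rod or cone returns to its dark state by switching off the activated proteins and by making cyclic GMP again, and both steps are steered by the fall in calcium. Calcium sensor proteins slow or speed these steps, and a GTPase-activating complex ends the action of transducin. The outer segment that holds this machinery is a modified cilium filled with flat discs, whose rims are shaped by tetraspanin proteins, and in the mouse it grows out only after the first postnatal days.

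Promoter windows show what stood around the start of these genes. RefSeq promoters (build GRCm38.p6), 250 bases before to 50 bases after a gene's start, were found for 7 of the 10 genes, in 9 windows. The motif TAATCC, the core that Crx and Otx2 homeodomain proteins bind, was searched on both strands (GGATTA is its reverse complement). It lay in 3 of the 9 windows, from 3 of the 7 genes (Guca1a, Mak and Aipl1), against 7.06% of all 32851 windows. The E-box CANNTG, the letters that basic helix-loop-helix proteins bind, reads the same on both strands and does not overlap TAATCC in letters. It was in 5 of the 9 windows, from 4 of the 7 genes (Rgs9, Mak, Aipl1 and Impdh1), against 72.3% of all windows. The 3 windows with TAATCC are printed because they are the ones that carry the photoreceptor motif, each along its gene, with the motif in capitals, GGATTA where it lay on the opposite strand. All 3 genes are on the minus strand, and the windows span chr17:47400557-47400856 for Guca1a, chr13:41070416-41070715 for the second window of Mak and chr11:72037460-72037759 for Aipl1.
Guca1a: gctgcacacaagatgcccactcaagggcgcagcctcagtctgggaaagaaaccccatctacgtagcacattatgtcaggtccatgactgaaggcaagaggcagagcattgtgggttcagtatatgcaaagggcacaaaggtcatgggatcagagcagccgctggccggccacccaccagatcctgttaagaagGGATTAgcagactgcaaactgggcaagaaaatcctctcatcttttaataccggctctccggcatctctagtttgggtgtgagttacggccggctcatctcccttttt
Mak: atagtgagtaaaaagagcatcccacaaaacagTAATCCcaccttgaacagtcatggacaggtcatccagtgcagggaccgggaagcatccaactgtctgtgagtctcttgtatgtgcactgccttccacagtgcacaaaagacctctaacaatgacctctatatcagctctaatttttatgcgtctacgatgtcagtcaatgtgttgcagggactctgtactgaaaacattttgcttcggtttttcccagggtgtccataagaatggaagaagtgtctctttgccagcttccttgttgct
Aipl1: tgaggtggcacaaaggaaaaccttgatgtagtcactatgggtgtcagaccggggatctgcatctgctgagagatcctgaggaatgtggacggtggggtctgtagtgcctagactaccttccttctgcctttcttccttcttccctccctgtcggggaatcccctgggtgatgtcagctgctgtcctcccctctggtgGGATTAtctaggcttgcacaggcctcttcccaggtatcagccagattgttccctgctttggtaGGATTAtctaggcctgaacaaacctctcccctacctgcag
The match lay 57 bases before the start in Guca1a and 218 bases before it in Mak. Aipl1 held 2 matches, 1 that lay 53 bases before the start and 1 after it, at base 11 of the transcript. The same letters, tctaggc, followed each of the 2 Aipl1 matches. A match is a description of the letters in the window only.

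Before the members' values, 1 array must be set apart. Median signals as deposited were 68.4, 9 and 51.3 in knockout replicates 1, 2 and 3, against 76.1, 95.5 and 56.9 in the wildtype replicates. Knockout replicate 2 had a 3' to 5' signal ratio of 274 for the Actb control probe sets, against 1.38 to 1.56 in the other 5 arrays, and its rank correlation with them was 0.642 to 0.669, while the other pairs of arrays reached 0.947 to 0.975. The array has no probe set paired with Nhlh2, so the targeted gene gave no check of the labels. Summed scaled signal of 8 lens genes was 5257 in wildtype 1 and 60.3 to 420.1 in the other arrays, and its part in the results was not tested. Values below are scaled signals, each array multiplied so that its 2% trimmed mean was 200, and the results are given with and without knockout replicate 2.

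Of the 15 probe sets, 10 had a signal above their own array's median in all 3 wildtype arrays, and 5 in none. The 10 probe sets, of 8 genes, were also those tested, which needed a signal above the array median in at least 3 of 6 arrays. Guca1b and Rgs9 had no tested probe set. In whole retina, fewer cells of a type and less RNA per cell cannot be told apart. Levels of different probe sets were not set against each other, since a signal also depends on the probes.

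Among the calcium sensors, Rcvrn encodes recoverin, which holds back rhodopsin kinase at high calcium. Its scaled signal was 252, 270.0 and 433 in knockout replicates 1, 2 and 3, against 183, 331 and 579 in wildtype replicates 1, 2 and 3. The wildtype arrays alone spanned 3.16-fold, the knockout arrays lay inside that span, and in both genotypes the mouse of litter 3 was highest. The difference, knockout minus wildtype, was -0.08 on the log2 scale (SE 0.50, limma adjusted p = 0.942, n = 3 each) with all arrays and 0.01 (SE 0.50, limma adjusted p = 0.99965) without knockout replicate 2. Guca1a encodes GCAP1, which activates guanylate cyclase when calcium falls. It gave 231, 61.9 and 363 in the knockout arrays, against 183, 231 and 246 in the wildtype arrays. Knockout replicate 2 was below every wildtype array, and the other 2 knockout arrays were each above their littermate. With all arrays the log2 difference was -0.33 (SE 0.67), and without knockout replicate 2 it was 0.41 (95% CI -0.23 to 1.05, limma adjusted p = 0.99965), so the sign turned with that array.

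The other recovery genes gave low signals. Guca1b, which encodes the related sensor GCAP2, had 5.24, 4.76 and 8.30 in the knockout arrays, against 4.82, 6.60 and 5.20 in the wildtype arrays, with probe set 1425138_at. Its other probe set, 1425441_at, ranged over 5.56 to 9.25 in knockout and 0.910 to 18.4 in wildtype retinas. Both were below the array median in all 6 arrays. Rgs9 encodes the GTPase-activating protein that ends transducin signalling. Its probe set 1418691_at gave 52.0, 125 and 51.7 in the knockout arrays, against 51.0, 61.0 and 33.1 in the wildtype arrays, and 1426033_at gave 3.22, 84.2 and 13.4 in the knockout arrays, against 13.2, 14.4 and 13.6 in the wildtype arrays. Knockout replicate 2 alone exceeded its array median with these probe sets, and no wildtype array did.

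**Figure D1:**
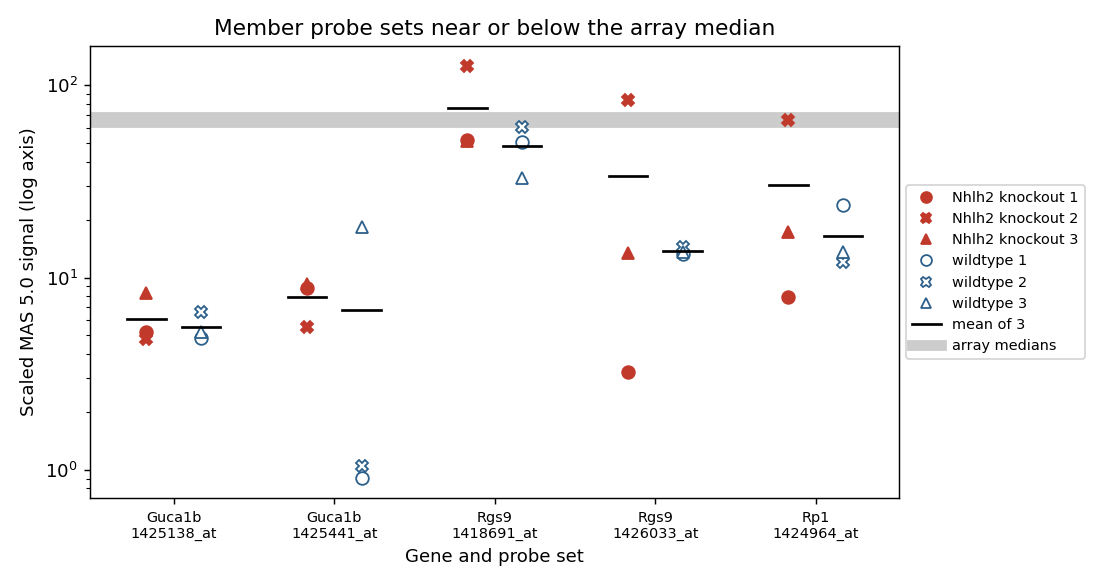
Scaled signal on a log axis of the 5 member probe sets that were not tested, for knockout replicates (filled symbols) and wildtype replicates (open symbols), with the mean of 3 as a bar and the range of array medians as a grey band. No wildtype point lies above its own array median, and the points of knockout replicate 2 reach 125 for Rgs9.

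Prph2 and Rom1 encode the partner tetraspanins of the disc rim. Prph2 gave 103, 31.8 and 75.2 in the knockout arrays, against 110, 135 and 72.4 in the wildtype arrays. Leaving knockout replicate 2 aside, both knockout values lay within the wildtype range, and the log2 difference was -0.22 (SE 0.31), against -0.70 (SE 0.52) with all arrays. Rom1 gave 1457, 1257 and 1357 in the knockout arrays, against 1311, 1454 and 1588 in the wildtype arrays. The groups overlapped and the wildtype replicates had an SD of 138 around a mean of 1451. Rom1 changed by -0.04 on the log2 scale without knockout replicate 2 (95% CI -0.49 to 0.41) and by -0.09 with it.

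Rp1 and Mak act in the ciliary shaft of the outer segment, Rp1 as a microtubule-associated protein of the axoneme and Mak as a kinase that restrains the length of the cilium. Rp1 (1424963_at) gave 661, 110 and 603 in the knockout arrays, against 612, 833 and 573 in the wildtype arrays. Knockout replicates 1 and 3 fell among the wildtype values and each was above its littermate, whereas knockout replicate 2 was far below all of them. The log2 difference was -0.07 (SE 0.23) without that array and -0.91 (SE 0.73) with it. The second probe set of Rp1, 1424964_at, was under the median in every wildtype array, at 7.96 to 65.9 in knockout and 12.1 to 23.9 in wildtype retinas.

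Both probe sets of Mak were tested. With 1422724_at, Mak gave 243, 92.1 and 167 in the knockout arrays, against 181, 222 and 243 in the wildtype arrays. With 1422725_at it gave 587, 1140 and 901 in the knockout arrays, against 530, 650 and 1138 in the wildtype arrays. The probe sets thus placed knockout replicate 2 at opposite ends, lowest of all arrays with the first and highest with the second. Without that array the log2 differences were -0.09 (SE 0.25) and -0.01 (SE 0.37).

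Aipl1 is a chaperone for the phosphodiesterase of rods and cones, and Impdh1 makes the guanine nucleotides from which cyclic GMP is formed. Aipl1 (1427952_at) gave 185, 178 and 171 in the knockout arrays, against 226, 232 and 251 in the wildtype arrays. All 3 knockout values were below all 3 wildtype values, and every pair had the same direction, with log2 differences of -0.29, -0.38 and -0.55. This was the only tested member probe set whose groups did not overlap, with or without knockout replicate 2. With all 6 arrays, 3.54% of all 11610 tested probe sets had every knockout value below every wildtype value and 2.64% had every knockout value above. Without knockout replicate 2 these shares were 5.42% and 5.35%, and a count of 1 in 10 members is no result about the members. The fitted difference was -0.40 (SE 0.18, 95% CI -0.83 to 0.02, limma adjusted p = 0.99965) without knockout replicate 2 and -0.40 (SE 0.27, limma adjusted p = 0.751) with it, and it did not pass the test.

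The other Aipl1 probe set, 1425590_s_at, whose suffix marks probes shared by several transcripts, gave 165, 73.1 and 126 in the knockout arrays, against 176, 172 and 123 in the wildtype arrays. Here the groups overlapped, and the log2 difference was -0.10 (SE 0.25) without knockout replicate 2. Impdh1 gave 283, 91.3 and 335 in the knockout arrays, against 274, 266 and 417 in the wildtype arrays. Its knockout replicates 1 and 3 lay within the wildtype range, with a log2 difference of -0.02 (95% CI -0.65 to 0.61) without knockout replicate 2 and -0.60 (SE 0.56) with it.

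**Figure D2:**
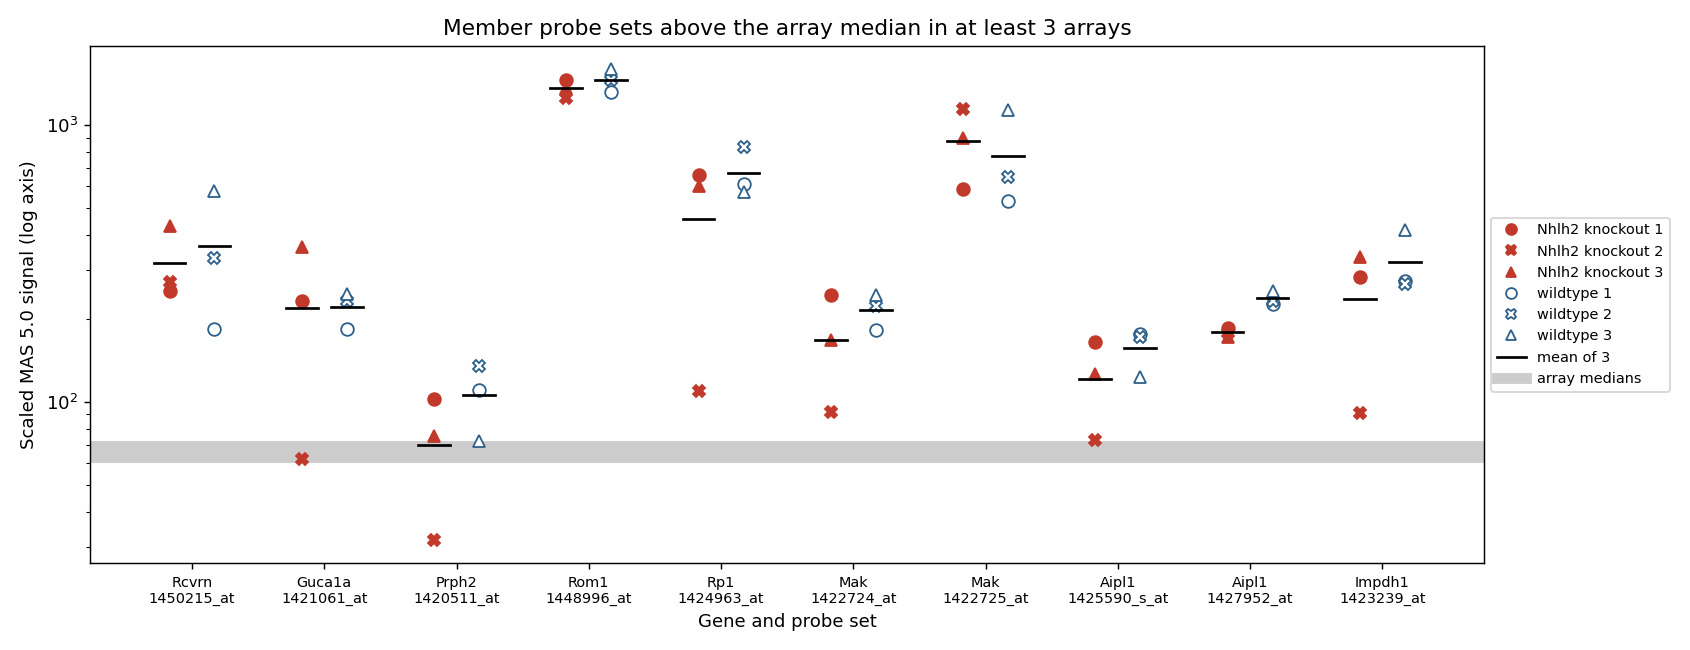
Scaled signal on a log axis of the 10 tested member probe sets, for knockout replicates (filled symbols) and wildtype replicates (open symbols), with the mean of 3 as a bar and the range of array medians as a grey band. Knockout replicate 2 lies below the 3 wildtype points for 8 of 10 probe sets, and Aipl1 1427952_at has no overlap between the groups.

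None of the 10 tested member probe sets was called at an adjusted p under 0.05 (limma, Benjamini-Hochberg over 11610 probe sets), with all arrays or without knockout replicate 2, and the background was 0 of 11610 (0%) in either fit. At an unadjusted p under 0.05, 0 member probe sets passed with all arrays, where 11 of all probe sets did (0.0947%), and 0 passed without knockout replicate 2, where 84 did (0.724%). Across the members the median log2 difference was -0.41 with 1 of 10 higher in knockout, beside -0.18 and 4463 of 11610 over all tested probe sets. Without knockout replicate 2 it was -0.06 with 2 of 10 higher, beside -0.00 and 5693 of 11610. SEs of the members ran from 0.18 to 0.50 without that array, so differences of that order were not detectable with these arrays. Larger differences could also be missed. A probe set outside the members differed by -1.67 without that array and was not called (limma adjusted p = 0.9996).

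Within littermate pairs the members differed by a median of 0.13 in pair 1, with 7 of 10 higher in the knockout, -1.24 in pair 2, with 1 of 10 higher, and -0.27 in pair 3, with 4 of 10 higher. The medians over all tested probe sets were 0.01, -0.54 and 0.00, with 5919, 4506 and 5859 of 11610 higher in the knockout. Knockout replicate 2 was below all 3 wildtype arrays for 8 of 10 members and for 54.8% of all tested probe sets. Pairs 1 and 3 had opposite signs for 7 of 10 members, among them Rcvrn with 0.46 and -0.42 and Mak 1422724_at with 0.42 and -0.54, against 51.9% of all tested probe sets. The same sign in both was seen for Guca1a (0.34 and 0.56), Rp1 (0.11 and 0.07) and Aipl1 1427952_at. With the pair as a block and pairs 1 and 3 only, Guca1a had an unadjusted p of 0.0489 in limma and an adjusted p of 0.998. It was 1 of 10 members under 0.05 unadjusted in that fit, beside 414 of 11610 probe sets (3.57%).

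**Figure D3:**
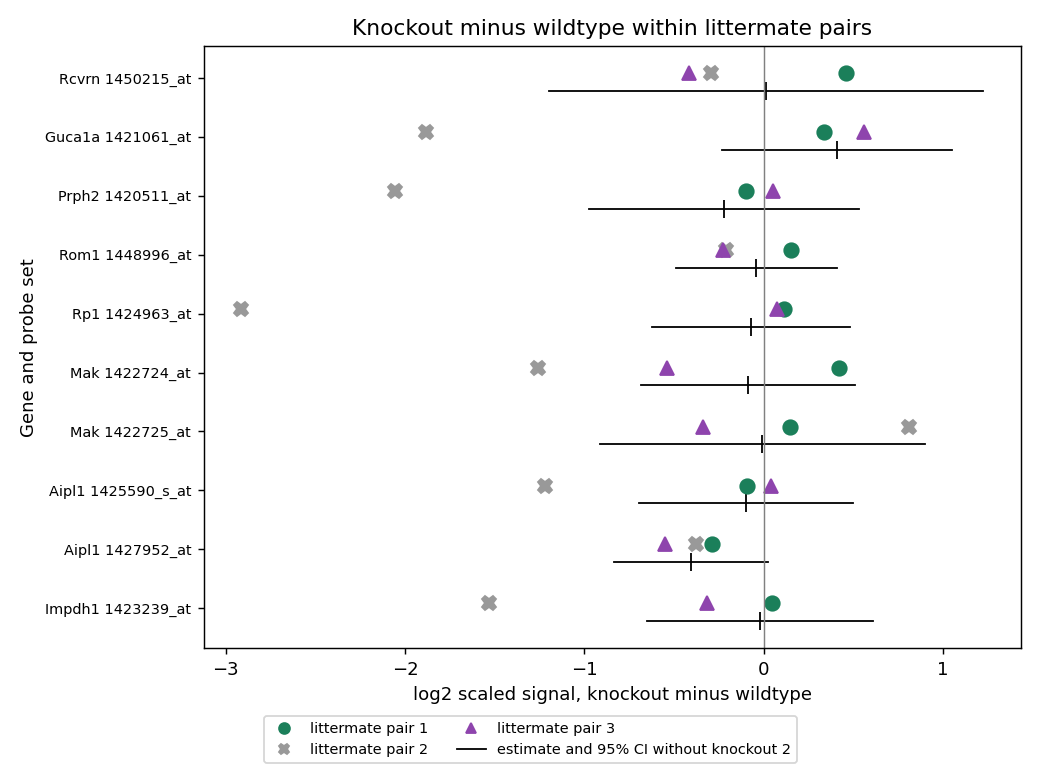
Difference in log2 scaled signal, knockout minus wildtype, within littermate pairs 1, 2 and 3 (symbols) for the 10 tested member probe sets, with the fitted estimate and its 95% confidence interval without knockout replicate 2 (black lines). Every interval includes 0, and pair 2 lies farthest from 0 for most probe sets, down to -2.91 for Rp1.

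Rcvrn and Mak 1422725_at differed between litters in the same direction in both genotypes. Litter 3 minus litter 1 was 0.78 in knockout and 1.65 in wildtype mice for Rcvrn, and 0.62 in knockout and 1.10 in wildtype mice for Mak 1422725_at. In all, 4 of 10 member probe sets were higher in litter 3 in both genotypes (with Guca1a and Impdh1), beside 33.1% of all tested probe sets, and 3 were lower in both (Prph2, Rp1 and Aipl1 1425590_s_at), beside 39.9%. A limma fit with genotype and litter as terms on the 4 arrays of pairs 1 and 3, chosen after these values were seen, has 1 residual degree of freedom per probe set. It called Rcvrn (1.21, SE 0.25, adjusted p = 0.0239) and Mak 1422725_at (0.86, SE 0.21, adjusted p = 0.0394) higher in litter 3. The other tested probe set of Mak, 1422724_at, did not show this, with -0.54 in knockout mice, 0.42 in wildtype mice and a fitted difference of -0.06 (limma adjusted p = 0.895). These were 2 of 10 members, against a background of 4.06% called higher and 7.55% called lower, and 0 members were called lower. In this limma fit 5 of 10 members and 3595 of 11610 probe sets had an unadjusted p under 0.05. With no filter on low signal the same fit called 0 members and 0 of 22626 probe sets, where 1 member and 2741 probe sets had an unadjusted p under 0.05. Litter and array handling cannot be told apart, since each litter was 1 pair of arrays. Wildtype 1, the array with the lens signal, was among the 4 arrays, and its part in these differences was not tested. Markers of other cells were also set against these litters, as counts higher and lower in litter 3 in both genotypes. Counts were 2 higher and 3 lower of 9 progenitor markers, and 4 higher and 3 lower of 8 ganglion cell markers. Amacrine and horizontal markers had 3 higher and 1 lower of 6, and bipolar and Mueller glia markers 1 higher and 1 lower of 4. Vessel and microglia markers had the largest share lower among these cell lists, with 4 lower and 1 higher of 5 tested. The summed scaled signal of all 8 measured vessel and microglia markers was 1194 in litter 3 and 1574 in litter 1 in knockout mice. In wildtype mice it was 1078 in litter 3 and 1598 in litter 1. The vessel markers Pecam1 and Cdh5 and the microglia marker Aif1 were below the median in every wildtype array. The 5 tested pigment epithelium markers had a median of 0.13 in knockout and -0.97 in wildtype mice for litter 3 minus litter 1, with 1 higher and 1 lower in both genotypes. The part of these cells in the litter differences of Rcvrn and Mak 1422725_at was not tested.

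**Figure D4:**
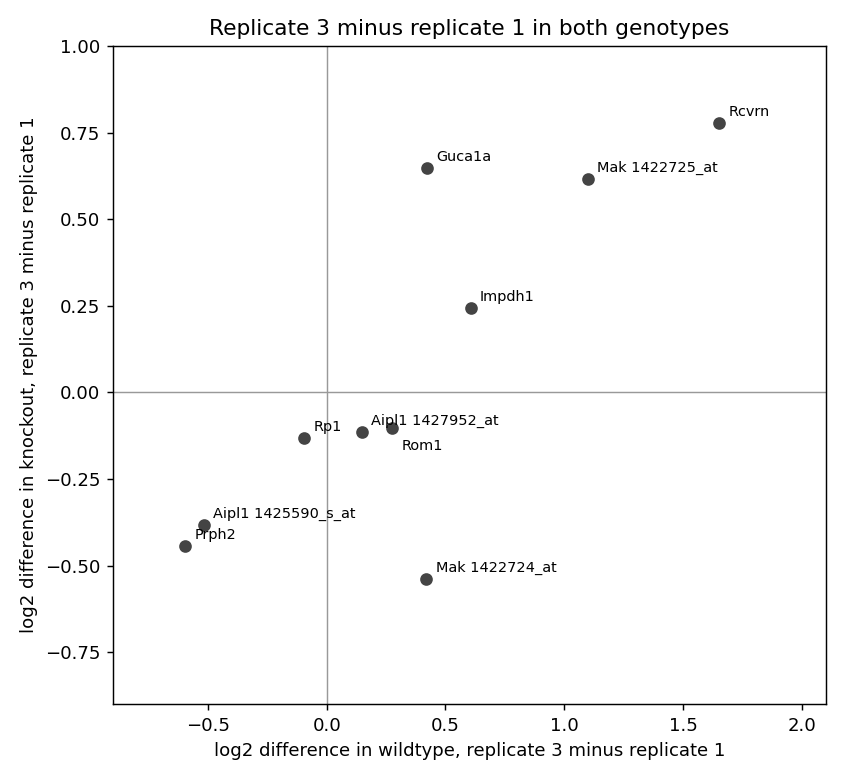
Log2 scaled signal of litter 3 (replicate 3) minus litter 1 (replicate 1) in knockout mice (vertical axis) and wildtype mice (horizontal axis), 1 point per tested member probe set. Rcvrn (0.78 and 1.65) and Mak 1422725_at (0.62 and 1.10) lie farthest toward the upper right.

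Lists of related genes also had no called member. None of all 11610 tested probe sets was called, so the counts of 0 below are no result about these lists. Of the recovery partners, such as Sag (arrestin) and Pdc (phosducin), 5 of 8 measured genes were tested and 0 were called in either direction. Of the disc and outer segment partners, such as Prom1 and Cdhr1, 6 of 7 were tested and 0 were called, with a median log2 difference of 0.03 without knockout replicate 2. Of a mixed list of nucleotide enzymes, kinases, Rgs proteins and calcium sensors, such as Hprt and Rgs7, 7 of 8 were tested and 0 were called. In the rod activation cascade 5 of 8 were tested and 0 called. Tested genes higher in litter 3 than in litter 1 in both genotypes were 5 of 5 in the rod activation cascade and 4 of 5 recovery partners. They were 3 of 6 photoreceptor regulators, 2 of 6 disc and outer segment partners and 1 of 7 in the mixed list. The share over all tested probe sets was 33.1%. In the rod activation cascade and among the recovery partners, the measured genes that were not tested had low signals. All of them were lower in litter 3 than in litter 1 in knockout mice. Photoreceptor regulators such as Crx and Nrl were above the median in all 3 wildtype arrays for 6 of 7 genes, and 0 of the 6 tested were called. Their summed scaled signal was 16904, 16052 and 20127 in the knockout arrays, against 16187, 18283 and 24034 in the wildtype arrays, and was highest in litter 3 in both genotypes. Nrl, Neurod1 and Rorb were the 3 that were higher in litter 3 than in litter 1 in both, while Crx had 2737 in litter 3 and 2911 in litter 1 in knockout mice, and 3211 in litter 3 and 2902 in litter 1 in wildtype mice. Otx2 was lower in litter 3 in both genotypes. Whether these regulators had a part in the litter differences of Rcvrn and Mak 1422725_at was not tested.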

How the data were processed

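Signals of 22690 probe sets, 64 of them controls, were read from the deposited table of 6 arrays. The authors made each value, a linear intensity, with the MAS 5.0 algorithm, and the deposited intensities were not scaled between arrays. A platform table paired 20380 probe sets with 1 gene symbol, 691 with several and 1555 with none, and no gene was named from a probe set with several. The number of arrays limits the precision. Each array was scaled to a 2% trimmed mean of 200 over the probe sets that were not controls, and log2(scaled signal + 1) was fitted with limma 3.58.1 (lmFit and eBayes, R 4.3.3), knockout minus wildtype, with no block. Tested were 11610 probe sets above the array median in at least 3 of 6 arrays, with Benjamini-Hochberg adjustment over all of them and a threshold of 0.05. Only the knockout against wildtype fits with no block, with all arrays and without knockout replicate 2, were tested on simulated data. The fits with the pair as a block and the litter fit were not.

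The plan was to name all 10 member genes with every probe set, control probe sets of Actb and Gapdh, and at most 2 genes of a list. More genes than planned were named from the photoreceptor regulator list and from the vessel and microglia list. Members and lists were chosen with earlier results of these data known. Sag, Pdc, Prom1, Cdhr1, Hprt, Rgs7, Crx and Nrl are examples of their lists, and Neurod1, Rorb, Otx2, Pecam1, Cdh5 and Aif1 were picked with their values in view. For lists, the probe set with the highest mean stood for a gene. Lists of progenitor, ganglion cell, amacrine and horizontal, bipolar and Mueller glia, pigment epithelium, and vessel and microglia markers also had 0 genes called, beside 0 of all 11610 probe sets. No lens gene was tested.

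Pairing came from the series design, in which the same number marks littermates. After group means were removed, same-numbered arrays correlated at r = 0.287, -0.141 and 0.177 for pairs 1, 2 and 3. Some arrays of different numbers correlated more, at 0.375 for knockout 1 with wildtype 2 and 0.158 for knockout 2 with wildtype 3, so the numbers did not always mark the closest arrays. Alternatives were other scalings, a constant of 16, other filters, an intensity trend, the pair as a block and leaving out each array. The litter fit was added after the data were seen.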

Additional observations from a re-analysis of the deposited data

How the results depend on the processing

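No member probe set and no probe set at all was called between knockout and wildtype under any of the alternatives run, and the smallest adjusted p of a member was 0.448 (limma). Of 168 member differences under the alternatives, 148 kept their sign and 20 turned it, none of them called. Rcvrn became 0.051 with quantile normalization, 0.064 with 75th percentile scaling, 0.021 in pairs 1 and 3 with the replicate block, and, without knockout replicate 2, 0.023 with quantile normalization and 0.013 with the filter recomputed. Rom1 became 0.053 with 75th percentile scaling. Mak 1422725_at became -1.02 with signals as deposited, -0.095 in pairs 1 and 3 with the block, and, without knockout replicate 2, -0.0065 with quantile normalization and -0.0090 with the filter recomputed. In pairs 1 and 3 with the block, Guca1a was 0.45 and Rp1 0.092, and Guca1a was 0.41 without knockout replicate 2 under both further settings. Leaving out 1 array at a time gave ranges of -0.50 to 0.33 for Rcvrn, -0.86 to 0.41 for Guca1a, -0.025 to 0.53 for Mak 1422725_at and -0.61 to -0.06 for the members' median.

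With signals as deposited, the members' median was -1.61, and -4.53 in pair 2, where knockout replicate 2 was dim. The littermate pair as a block changed no call: the members' median was -0.41 with 0 called, and the smallest adjusted p was 0.758. The litter contrast, added after the data were seen, called 1348 probe sets, and 2927 with signals as deposited, 586 with the filter on all 6 arrays, 2107 with an intensity trend and 0 with no filter. Of the members it called 2, and 0 with no filter. With signals as deposited 3 were called, Rcvrn, Prph2 and Aipl1 1425590_s_at, where the median of all probe sets was -0.29. The cause of these changes was not tested.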
